A study of Mus musculus with 21 samples.

Results

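The genes described here are 42 genes of cell division, out of 55471 in the count table, measured in dendritic cells (DCs) of a mouse Aire-reporter strain. They were taken from a list of named genes and not by a cut on their values, but the list was chosen with earlier results of these data known. The list holds 24 genes of mitosis, of which 12 are mitotic cyclins, kinases and their control and 12 are spindle, kinetochore and chromosome structure genes. It also holds 18 genes of S phase, of which 3 act at entry into S phase, 10 in origin licensing and firing and 5 at the replication fork, in nucleotide supply or in maintenance methylation. Each symbol matched a single gene ID, and all 42 passed the expression filter in every fit, which kept 15884 genes in lymph node, 15503 in bone marrow and 17265 over both tissues.

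A dividing cell first loads the MCM helicase on its origins with the help of Cdc6 and Cdt1, copies its DNA in S phase, and then enters mitosis when Cdk1 is activated by cyclins A and B. E2F factors drive the S-phase genes, and the MuvB complex with B-Myb and Foxm1 activates the later mitotic genes, which the DREAM complex (MuvB with a pocket protein and a repressive E2F) holds off in resting cells through a promoter element called CHR. DC precursors divide in the bone marrow, and conventional DCs divide little after they mature, and transcripts of these genes are widely used to mark cells in cycle.

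All 21 libraries are labelled as from male C57BL/6 mice, 6 weeks old, that carry the reporter knock-in allele AGF-KI of Aire, the autoimmune regulator. The 7 groups have 3 biological replicates each. Lymph node cells positive for CD45, CD11c and MHCII were sorted by the reporter, which gave AGF+ cells of AGF-KI/- mice (named AireKO in the labels), AGF+ cells of AGF-KI/+ mice (KI/+), AGF− AireKO cells and AGF− KI/+ cells. Bone marrow gave AGF+ AireKO cells and AGF+ KI/+ cells, both from a gate without B220, with CD24 and with little or no CD11b, and a KI/+ population of B220−, CD11c+, MHCII+ cells, named total DC here after the sample titles (the series design names it AGF−). The bone marrow populations therefore differ in gate as well as in reporter, and the effects of these cannot be told apart. There was no group without the reporter allele.

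Library totals were 4164451 to 6055097 counts, so that 1 CPM (a read count scaled by the TMM effective library size) rests on 3.92 to 6.58 counts and a count of 0 allows up to 0.456 to 0.764 CPM, which covers counting error only. Aire itself was at 22.7 to 26.5 CPM in lymph node AGF+ AireKO cells and 98.7 to 132 CPM in AGF+ KI/+ cells, and at 11.5 to 19.6 CPM in bone marrow AGF+ AireKO cells and 79.3 to 115 CPM in AGF+ KI/+ cells. The 7 libraries numbered 2, 1 in each group, had 2021 to 3993 CPM of Xist and at most 0.766 CPM of 4 Y-linked genes, against 0 to 31.1 CPM of Xist and 329 to 566 CPM of those Y-linked genes in the other 14, which goes against their label as male. Replicates are described as biological, and the chi-square of their counts over its degrees of freedom was 4.04 to 17.9 in 21 replicate pairs, so that no pair differed by sampling noise alone. The libraries numbered 2 are spread evenly over the groups, and the total of called members in each comparison is also given without them, with counts by role in the KI/+ lymph node comparison. A list of 10 DC markers summed to 6032 to 11804 CPM over all libraries, with none of its genes at 0 in any group.

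The promoters of 5 members are shown, because they hold the motifs known from mitotic and from S-phase genes. RefSeq windows of 250 bases before to 50 bases after the annotated start (build GRCm38.p6) matched 34 of the 42 members in 36 windows. Both strands were searched for CHR (TTTGAA or TTCGAA), for an E2F site (TTTCCCGC or TTTGGCGC) and for CCAAT, the site of NF-Y, and no matches of different motifs overlapped. Each sequence below is the gene's own strand, and capitals mark a match of any of the 3 motifs on either strand. Ccnb2 (chr9:70421505-70421804, minus strand) and Top2a (chr11:99024140-99024439, minus strand) are mitotic, and Mcm3 (chr1:20820263-20820562, minus strand), Mcm6 (chr1:128359656-128359955, minus strand) and Cdt1 (chr8:122567765-122568064, plus strand) act in origin licensing.
Ccnb2: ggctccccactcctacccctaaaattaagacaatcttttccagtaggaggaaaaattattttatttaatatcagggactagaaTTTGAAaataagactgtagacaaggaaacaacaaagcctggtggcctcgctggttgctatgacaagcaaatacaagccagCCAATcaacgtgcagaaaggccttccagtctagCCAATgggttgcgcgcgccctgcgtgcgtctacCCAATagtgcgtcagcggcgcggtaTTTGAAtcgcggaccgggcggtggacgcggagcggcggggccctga
Top2a: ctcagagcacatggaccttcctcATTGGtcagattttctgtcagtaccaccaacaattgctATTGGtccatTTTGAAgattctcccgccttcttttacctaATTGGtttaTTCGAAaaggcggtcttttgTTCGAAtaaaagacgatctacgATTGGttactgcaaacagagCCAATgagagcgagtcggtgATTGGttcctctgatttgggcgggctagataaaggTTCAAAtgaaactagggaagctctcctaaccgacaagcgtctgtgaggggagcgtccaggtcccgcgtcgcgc
Mcm3: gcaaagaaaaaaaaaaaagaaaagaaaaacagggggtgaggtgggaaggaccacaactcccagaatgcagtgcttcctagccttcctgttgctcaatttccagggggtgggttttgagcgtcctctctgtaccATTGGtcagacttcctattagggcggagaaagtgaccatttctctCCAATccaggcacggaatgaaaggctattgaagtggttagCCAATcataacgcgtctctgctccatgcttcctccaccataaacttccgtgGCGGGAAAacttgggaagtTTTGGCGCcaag
Mcm6: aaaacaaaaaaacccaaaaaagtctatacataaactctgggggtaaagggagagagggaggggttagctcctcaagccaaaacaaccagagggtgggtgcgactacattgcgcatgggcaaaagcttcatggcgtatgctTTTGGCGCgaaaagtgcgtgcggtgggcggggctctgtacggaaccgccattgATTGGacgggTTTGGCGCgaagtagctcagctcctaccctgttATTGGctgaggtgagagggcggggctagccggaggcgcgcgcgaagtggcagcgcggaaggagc
Cdt1: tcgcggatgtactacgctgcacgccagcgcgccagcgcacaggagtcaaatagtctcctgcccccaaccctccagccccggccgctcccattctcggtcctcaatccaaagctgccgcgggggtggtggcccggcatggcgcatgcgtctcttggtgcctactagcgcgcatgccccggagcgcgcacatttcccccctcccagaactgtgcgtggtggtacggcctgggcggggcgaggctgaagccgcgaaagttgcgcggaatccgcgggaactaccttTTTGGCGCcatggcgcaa
Ccnb2 has CHR matches that begin at positions -167 and 5 from the start (which is position 1) and CCAAT at -87, -54 and -21. The E2F matches of Mcm6 begin at -110 and -47, those of Mcm3 at 20 and 39, and that of Cdt1 at 33. A CHR match stood in 15 of the 19 mitotic windows (78.9%) and in 3 of the 17 S-phase windows (17.6%), against 19.2% of all 32851 windows. An E2F match stood in 0 of the 19 mitotic and 6 of the 17 S-phase windows (35.3%), against 1.56% of all, and CCAAT in 16 (84.2%) and 12 (70.6%), against 37.4% of all. These matches are descriptions of letters in a window and not of factor binding.

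The 42 genes together were lowest in lymph node AGF+ cells and highest in bone marrow AGF+ cells. Their summed level was 551 to 699 CPM in lymph node AGF+ AireKO cells, 532 to 644 CPM in lymph node AGF+ KI/+ cells, 848 to 1097 CPM in lymph node AGF− AireKO cells and 978 to 1081 CPM in lymph node AGF− KI/+ cells. In bone marrow it was 3988 to 4907 CPM in AGF+ AireKO cells, 3425 to 6129 CPM in AGF+ KI/+ cells and 1753 to 2540 CPM in total DCs. AGF+ cells thus lay below AGF− cells in lymph node and above total DCs in bone marrow, without overlap of libraries. The bone marrow populations differ in gate as well as in reporter, and the effects of these cannot be told apart. Bone marrow AGF+ KI/+ replicate 3 was the highest library of all. In bulk samples, fewer cells of a type and less RNA per cell cannot be told apart.

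**Figure D1:**
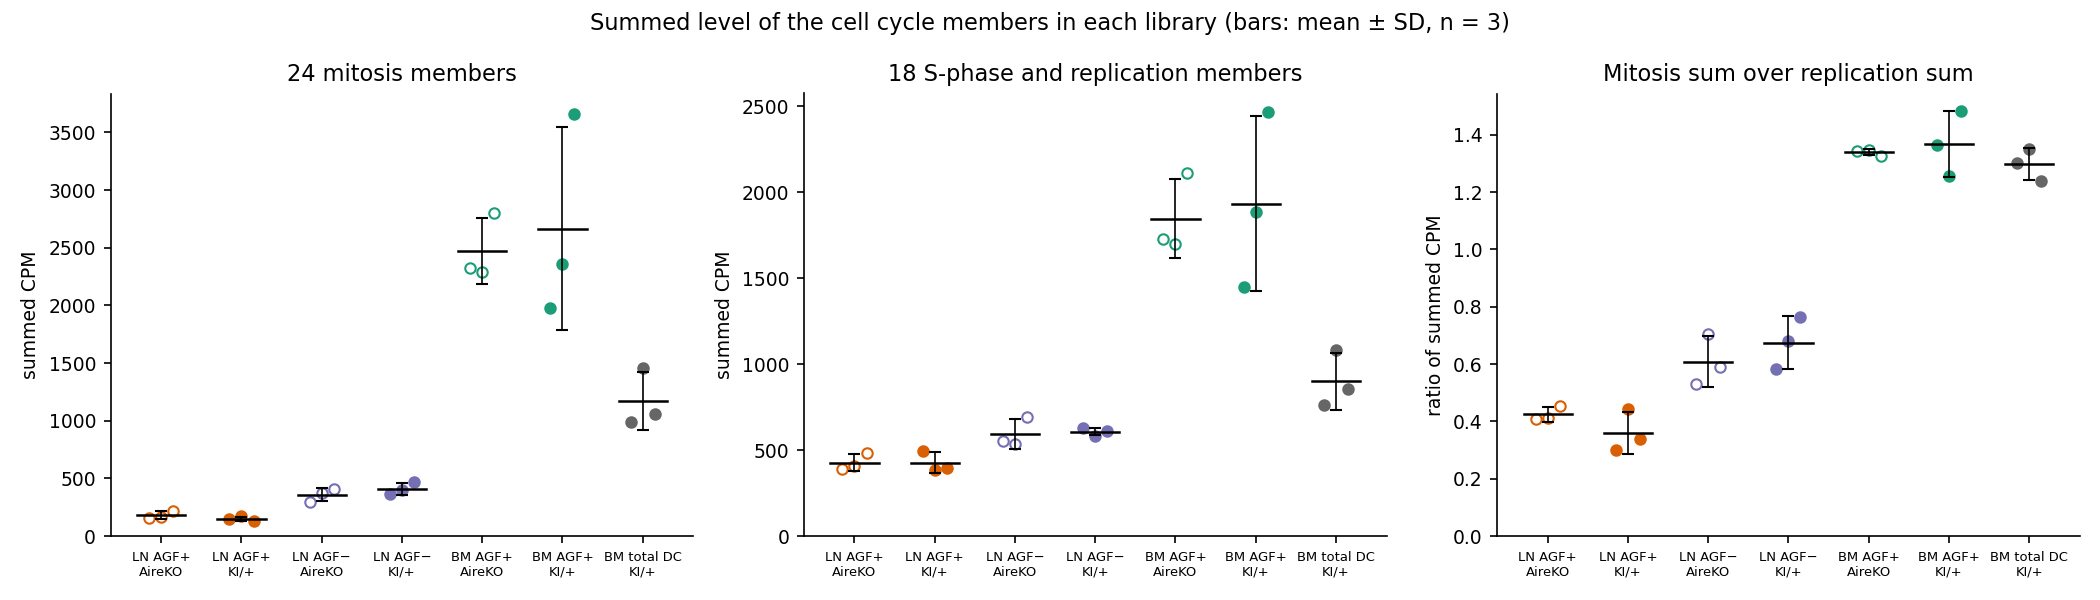
Summed level in CPM of the 24 mitosis members (left) and the 18 S-phase and replication members (middle), and their ratio (right), in each of the 21 libraries; points are libraries, open for AireKO and filled for KI/+, and bars are the mean and SD of 3. The mitosis sum averages 151 CPM in lymph node AGF+ KI/+ cells and 2666 CPM in bone marrow AGF+ KI/+ cells.

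The balance of mitotic to S-phase transcripts differed as well. The mitotic sum over the S-phase sum was 0.424 ± 0.026 in lymph node AGF+ AireKO cells and 0.361 ± 0.074 in lymph node AGF+ KI/+ cells, against 0.608 ± 0.089 in AGF− AireKO cells and 0.675 ± 0.091 in AGF− KI/+ cells (SD, n = 3 each). In bone marrow it was 1.34 ± 0.011 in AGF+ AireKO cells, 1.37 ± 0.11 in AGF+ KI/+ cells and 1.30 ± 0.056 in total DCs. The ratio was under 1 in every lymph node library and over 1 in every bone marrow library, and the lymph node AGF+ libraries all lay below the AGF− libraries. The sums hold 24 mitotic and 18 S-phase genes and are not scaled by gene length. The ratio can therefore be compared between groups, but its side of 1 does not show which transcripts were more abundant. Per kilobase of exon, Mcm3, a helicase subunit, ranked first of the 42 genes in lymph node AGF+ KI/+ cells with 15.6 CPM per kb, while Uhrf1, which brings the maintenance methyltransferase to new DNA, ranked first in bone marrow AGF+ KI/+ cells with 73.3 CPM per kb. Cenpf ranked last in the lymph node cells, at 0.103 CPM per kb in AGF+ KI/+ cells, and Cdt1 last in bone marrow AGF+ KI/+ cells, at 4.31 CPM per kb.

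Of single genes, 35 of the 42 had their highest mean in bone marrow AGF+ KI/+ cells and 5 in bone marrow AGF+ AireKO cells. The other two were Cdt1, highest in lymph node AGF− AireKO cells, and Ccne1, highest in bone marrow total DCs. The lowest mean was in lymph node AGF+ KI/+ cells for 26 genes and in lymph node AGF+ AireKO cells for 13. Ccne2 and Uhrf1 were lowest in lymph node AGF− AireKO cells and Cdt1 in bone marrow total DCs.

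In lymph node of KI/+ mice, AGF+ cells held less of these transcripts than their AGF− counterparts. Of the 42 genes 28 fell, none rose and 14 passed no threshold at an adjusted p of 0.05, with a median log2 fold change of -0.88, against 11% of all 15884 tested genes called lower, 10.1% called higher and a median of 0.01 over all. In 35 genes every AGF+ library lay below every AGF− library, which held for 19.1% of all genes. The mitotic genes had the larger fold changes, with a median log2 fold change of -1.57 over 24 genes, 16 of them called, against -0.66 over 18 genes, 12 of them called. Leaving out the libraries numbered 2 left 13 called genes, 12 of the mitotic and 1 of the S-phase genes, with a median of -0.92 over the 42. That fit holds fewer libraries, and calls over all genes fell in it as well, as given in the last section.

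Among the mitotic cyclins and kinases 8 of 12 genes fell (5 without the libraries numbered 2). Ccnb2, cyclin B2, had 2.37, 1.67 and 1.53 CPM in AGF+ libraries and 9.10, 7.87 and 11.6 CPM in AGF− libraries. All AGF+ values lay far under the lowest AGF− value, and the log2 fold change was -2.33 ± 0.29 (± here and beside every adjusted p is the standard error of the log2 fold change; adjusted p = 7.06e-05). Bub1b, a kinase-like protein of the spindle checkpoint, had 10.7, 10.0 and 7.64 CPM in AGF+ libraries and 26.2, 24.4 and 22.6 CPM in AGF− libraries. The groups did not overlap (-1.36 ± 0.17, adjusted p = 8.73e-05). Ccna2, cyclin A2, had 3.47, 1.98 and 2.40 CPM in AGF+ libraries and 12.2, 5.85 and 15.01 CPM in AGF− libraries. The AGF− libraries spread widely, with replicate 2 lowest, and still lay above all AGF+ libraries (-2.06 ± 0.36, adjusted p = 0.00123). Ube2c, the ubiquitin-conjugating enzyme of the anaphase-promoting complex, had the largest fall of all 42 (-3.33 ± 0.66, adjusted p = 0.00265). It averaged 0.510 ± 0.250 CPM in AGF+ cells and 5.38 ± 1.898 CPM in AGF− cells (SD, n = 3 each), and the AGF+ values rest on 2 to 5 counts per library. Cdk1, Foxm1, Plk1 and Aurka did not pass the test.

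Of the spindle and chromosome genes 8 of 12 fell, with a median log2 fold change of -1.63. Top2a, the topoisomerase that untangles replicated chromosomes, had 16.1, 24.5 and 13.97 CPM in AGF+ libraries and 48.8, 54.1 and 60.7 CPM in AGF− libraries. The groups lay far apart (-1.58 ± 0.19, adjusted p = 5.44e-05). Kif23, a kinesin of the central spindle, had 5.83, 5.47 and 4.59 CPM in AGF+ libraries and 16.2, 17.96 and 17.1 CPM in AGF− libraries. The difference was about as large (-1.68 ± 0.21, adjusted p = 7.05e-05). Mki67, which encodes Ki-67, a protein that coats mitotic chromosomes, had 36.0, 46.5 and 37.1 CPM in AGF+ libraries and 106, 131 and 148 CPM in AGF− libraries. Even the lowest AGF− library held over 2 times the highest AGF+ library (-1.69 ± 0.21, adjusted p = 9.04e-05). Knl1, a scaffold of the kinetochore, had a log2 fold change of -1.94 ± 0.28 (adjusted p = 2.57e-04). Birc5, Kif20a, Nusap1 and Tpx2 did not pass.

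The S-phase genes changed by less. Ccne1, cyclin E1, was the 1 called gene of the 3 at entry into S phase, with 1.73, 1.67 and 2.40 CPM in AGF+ libraries and 4.66, 6.05 and 4.44 CPM in AGF− libraries (-1.40 ± 0.30, adjusted p = 0.00453). E2f1 and Ccne2 did not pass. Among the licensing genes 8 of 10 fell, by log2 fold changes between -0.50 and -1.03, with Mcm3 and the Cdt1 inhibitor Gmnn not called. Without the libraries numbered 2, 0 of the 10 licensing genes, 0 of the 3 entry genes and 1 of the 5 fork and nucleotide genes (Rrm2) were called. Mcm2, a helicase subunit, had 33.0, 22.8 and 27.1 CPM in AGF+ libraries and 49.3, 48.4 and 40.8 CPM in AGF− libraries. The AGF+ libraries were all lower, though by less than for the mitotic genes (-0.74 ± 0.16, adjusted p = 0.00473). Mcm4 (-0.65 ± 0.15, adjusted p = 0.00695), Mcm7 (-0.63 ± 0.15, adjusted p = 0.00881) and Mcm5 (-0.61 ± 0.17, adjusted p = 0.0191) moved alike. In the fork and nucleotide group, Rrm2, the S-phase subunit of ribonucleotide reductase, had 5.83, 4.86 and 1.75 CPM in AGF+ libraries and 16.6, 23.0 and 19.7 CPM in AGF− libraries (-2.21 ± 0.34, adjusted p = 4.77e-04). Its partner Rrm1 fell far less (-0.70 ± 0.19, adjusted p = 0.0178), as did Pcna, the sliding clamp (-0.87 ± 0.27, adjusted p = 0.0366). Uhrf1 was the 1 gene with a positive value (0.35 ± 0.27, adjusted p = 0.400), which was not called and turned to -0.0003 without AGF+ replicate 1. Pcna also lost its call without AGF+ replicate 1, 2 or 3 or AGF− replicate 3, Rrm1 without AGF+ replicate 1 or 3 or AGF− replicate 3, and Mcm5 without AGF+ replicate 2 or 3 or AGF− replicate 1.

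In AireKO mice the same sort gave a like picture. Of the 42 genes 26 fell and none rose, with a median log2 fold change of -1.002, against 13.3% of all genes called lower and 11.4% called higher, and in 30 genes the AGF+ libraries all lay lower, against 19.2% of all genes. In Uhrf1 and Ccne2 they all lay higher, against 20.4% of all genes, and neither passed the test, Ccne2 having the highest log2 fold change of the 42 (0.53 ± 0.25, adjusted p = 0.150). The count was 15 without the libraries numbered 2, 14 without AGF+ AireKO replicate 1 and 16 without AGF+ AireKO replicate 2. These fits hold fewer libraries, and for the fit without the libraries numbered 2 the counts over all genes are not given here. With single replicates left out, the lower calls over all genes ran from 1536 to 2216, against 2114 with all libraries. The 2 genotypes shared 23 called genes, 82.1% of those called in KI/+ and 88.5% of those called in AireKO mice. As 28 and 26 of the 42 genes were called, part of this overlap follows from those shares alone. The comparisons share no library, but both come from the same fit of lymph node libraries. Deviations of same-numbered libraries correlated between genotypes, at 0.41, 0.47 and 0.40 in AGF− cells and 0.10, 0.25 and 0.22 in AGF+ cells. The comparisons are therefore not fully independent. Without the libraries numbered 2 the genotypes shared 8 called genes, 61.5% of those in KI/+ and 53.3% of those in AireKO mice. The AireKO calls were then 8 mitotic and 7 S-phase genes. Kif23 (-1.500 ± 0.20, adjusted p = 1.29e-04), Top2a (-1.06 ± 0.18, adjusted p = 7.99e-04), Bub1b (-1.14 ± 0.17, adjusted p = 2.75e-04) and Ccnb2 (-1.70 ± 0.29, adjusted p = 6.48e-04) had the smallest adjusted p of the mitotic genes. Rrm2 had the largest fall (-2.22 ± 0.36, adjusted p = 4.61e-04), followed by Ccne1 (-2.11 ± 0.31, adjusted p = 2.58e-04). Foxm1, E2f1 and Birc5 were called in AireKO and not in KI/+ mice, and Aurkb, Ccnb1, Knl1, Mcm6 and Mcm7 the other way round. E2f1 lost its call without AGF+ replicate 1 or AGF− replicate 1. The test of the difference between genotypes called none of the 42 genes.

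**Figure D2:**
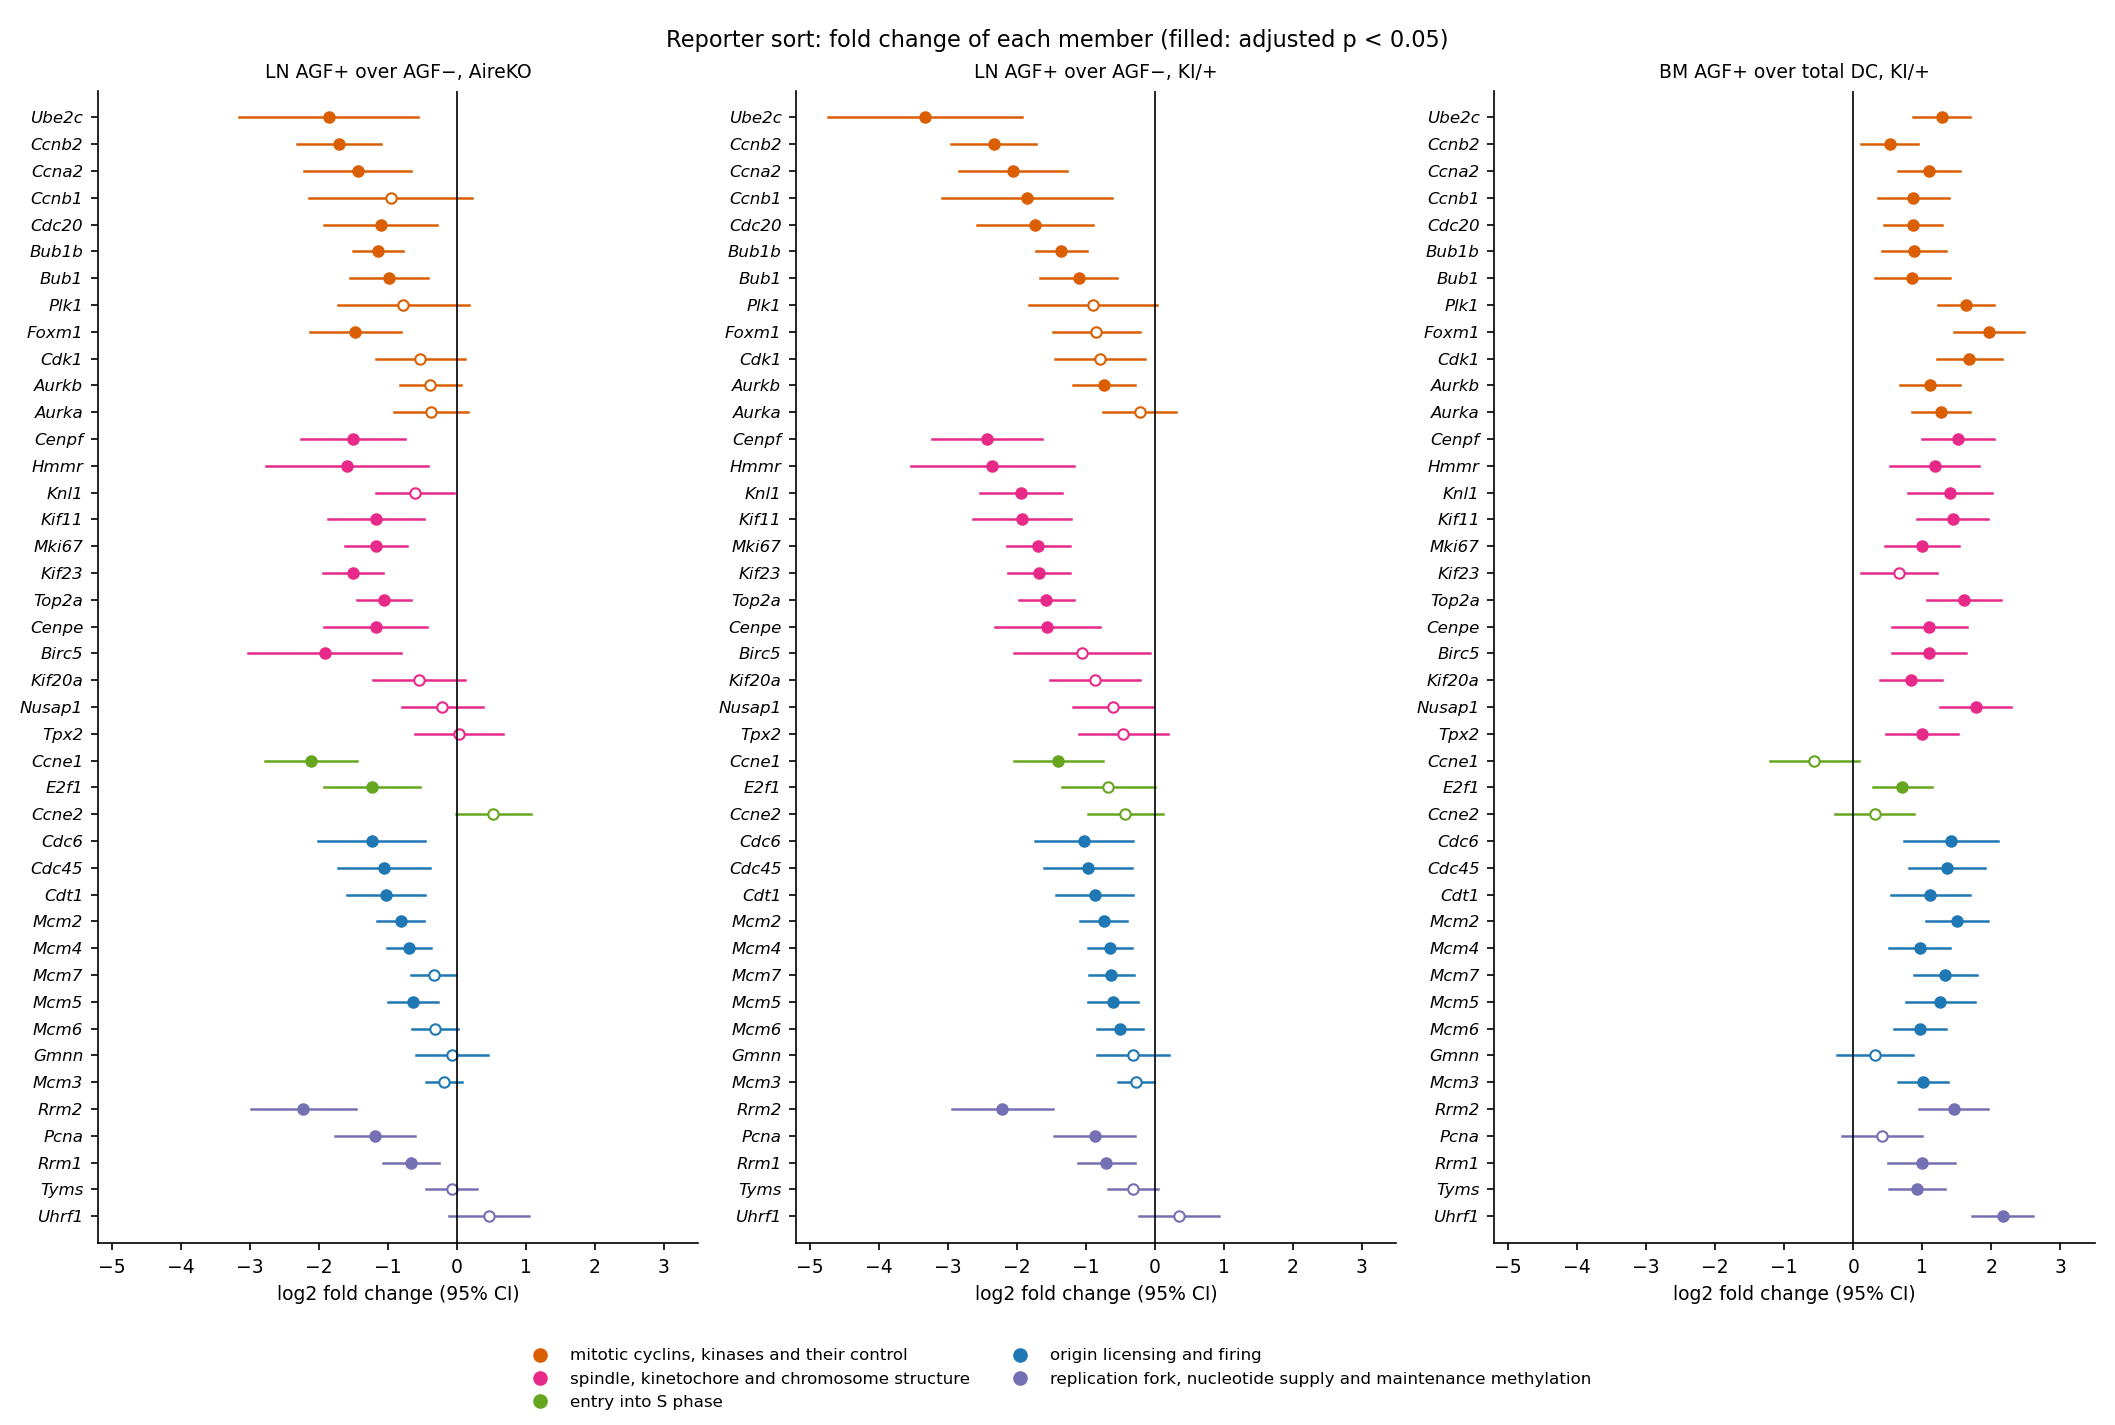
Log2 fold change (x axis, with 95% confidence intervals as lines) of each of the 42 members between sorted populations. These are lymph node AGF+ over AGF− in AireKO and in KI/+ mice, and bone marrow AGF+ over total DC, which also differ in gate, in KI/+ mice. Filled points passed an adjusted p of 0.05 and colours mark the role groups. Most members lie left of 0 in lymph node (medians -1.002 in AireKO and -0.88 in KI/+) and right of 0 in bone marrow (median 1.10).

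Other genes of the pathway, from lists kept apart from the 42, were lower in part in the KI/+ lymph node comparison. Of all genes tested there, 11% were called lower and 10.1% higher. Of 43 other mitosis genes tested, 20 fell and none rose, among them Cdc25b, the phosphatase that activates Cdk1 (-2.25 ± 0.23, adjusted p = 1.79e-05), and Racgap1, the partner of Kif23 (-1.27 ± 0.17, adjusted p = 1.42e-04). Of 37 other replication genes 10 fell and 1, the polymerase gene Pole, rose, and of 12 histone and chromatin genes of dividing cells 9 fell, with Hist1h1b, a linker histone, at -2.64 ± 0.39 (adjusted p = 3.23e-04). In the list of E2F and MYB genes, which also holds Myc, a gene of neither family, 4 of 8 fell. Among these were Myc at -2.47 ± 0.34 (adjusted p = 1.70e-04) and E2f8, an atypical repressive E2F, at -2.18 ± 0.39 (adjusted p = 0.00129). The G1 kinases parted, with Cdk6 higher (0.58 ± 0.12, adjusted p = 0.00342) and Cdk4 lower (-0.51 ± 0.12, adjusted p = 0.00654) in AGF+ cells, and the D cyclins Ccnd2 and Ccnd3 were lower as well. No gene of the CDK inhibitor, pocket protein and DREAM, or p53 target and antiproliferative lists was called higher. Of 6 CDK inhibitors 2 fell, Cdkn2c and Cdkn2d, of 11 pocket protein and DREAM genes 1 fell, Rb1, and of 12 p53 targets and antiproliferative genes 3 fell, Tob1, Trp53inp1 and Btg2. In AireKO mice 14 of 43 other mitosis genes fell and 2 rose, 4 of 37 replication genes fell and 3 rose, and 4 of 12 histone genes fell, so that the replication list lay under the shares over all genes in both directions (13.3% lower and 11.4% higher).

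Markers of other cells were lower in lymph node AGF+ cells too. In KI/+ mice 17 of 18 T and NK cell markers fell, their sum being 111 to 175 CPM in AGF+ and 215 to 748 CPM in AGF− libraries, with Ncr1 and Gzmb at 0 in AGF+ cells. Of 13 B cell markers 11 fell, with sums of 214 to 266 CPM in AGF+ and 1019 to 2028 CPM in AGF− libraries, and of 13 monocyte and macrophage markers 8 fell, with sums of 441 to 561 CPM in AGF+ and 2087 to 2275 CPM in AGF− libraries. Of 9 plasmacytoid DC markers 5 fell and 1 rose, of 9 cDC1 markers 6 fell, and of the 10 general DC markers 5 fell. In AireKO mice 17 of 18 T and NK cell, 13 of 13 B cell and 9 of 13 monocyte and macrophage markers fell. In KI/+ mice, of 9 markers of mature CCR7 DCs 1 rose and none fell, with sums of 3160 to 5691 CPM in AGF+ and 3248 to 4438 CPM in AGF− libraries. The part of these cells in the lower cell division transcripts was not tested.

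In bone marrow the direction was the opposite, with AGF+ cells above total DCs. Of the 42 genes 37 rose, none fell and 5 did not pass, with a median log2 fold change of 1.10, against 23% of all 15503 tested genes called higher, 21.3% called lower and a median of 0.02 over all. In 36 genes every AGF+ library lay above every total DC library, against 26.1% of all genes. The rise was at least 2-fold in 24 genes, and the share of all genes at that size was not counted. Mitotic genes and S-phase genes moved by like amounts, with medians of 1.11 over 24 and 1.001 over 18. Leaving out the libraries numbered 2 left 35, in a fit with fewer libraries in which calls over all genes fell as well. The genes that did not pass were Ccne1, Ccne2, Gmnn, Kif23 and Pcna.

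All 12 mitotic cyclin and kinase genes rose. Plk1, the polo kinase, had 40.4, 39.2 and 53.7 CPM in AGF+ libraries and 14.5, 17.6 and 11.4 CPM in total DC libraries. The populations were far apart (1.63 ± 0.19, adjusted p = 5.12e-05). Foxm1, the factor that drives G2 and mitosis genes, had 34.9, 42.9 and 52.4 CPM in AGF+ libraries and 13.002, 13.1 and 7.72 CPM in total DC libraries (1.96 ± 0.23, adjusted p = 6.65e-05). Cdk1, the mitotic kinase, had 47.9, 53.2 and 82.0 CPM in AGF+ libraries and 17.7, 21.5 and 18.5 CPM in total DC libraries (1.68 ± 0.21, adjusted p = 1.15e-04). All 3 had every AGF+ library above every total DC library, and none of them was called in the lymph node comparison of KI/+ mice. Ube2c followed (1.28 ± 0.19, adjusted p = 2.90e-04).

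Of the spindle and chromosome genes 11 of 12 rose. Nusap1, which bundles spindle microtubules, had 72.8, 81.9 and 131 CPM in AGF+ libraries and 26.0, 36.1 and 22.4 CPM in total DC libraries (1.78 ± 0.23, adjusted p = 1.41e-04). Top2a had 398, 499.8 and 804 CPM in AGF+ libraries and 177, 242 and 147 CPM in total DC libraries (1.60 ± 0.25, adjusted p = 3.70e-04). AGF+ replicate 3 was the highest for each of these genes, and the 2 populations did not overlap. Cenpf, a large kinetochore protein, had 69.1, 75.4 and 123.4 CPM in AGF+ libraries and 27.5, 39.7 and 27.2 CPM in total DC libraries (1.52 ± 0.24, adjusted p = 4.36e-04). Kif11, the motor that pushes spindle poles apart, moved by the same order (1.44 ± 0.24, adjusted p = 5.62e-04).

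Of the 3 genes at entry into S phase 1 rose. E2f1 rose, with 19.99, 26.6 and 24.6 CPM in AGF+ libraries and 15.99, 16.6 and 11.4 CPM in total DC libraries (0.71 ± 0.19, adjusted p = 0.0114), and was not called without the libraries numbered 2. Ccne1 had 9.38, 15.1 and 16.2 CPM in AGF+ libraries and 11.9, 29.1 and 19.9 CPM in total DC libraries and was the 1 gene of the 42 with a negative value (-0.56 ± 0.29, adjusted p = 0.142). It was not called here, and it was called lower without total DC replicate 1. Ccne2 had 16.9, 17.99 and 33.5 CPM in AGF+ libraries and 14.1, 22.1 and 19.7 CPM in total DC libraries, which overlap.

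Of the licensing genes 9 of 10 rose. Mcm2 had 82.6, 111 and 130.2 CPM in AGF+ libraries and 35.2, 48.5 and 31.6 CPM in total DC libraries (1.505 ± 0.21, adjusted p = 1.91e-04). Mcm7, another helicase subunit, had 75.5, 94.6 and 112 CPM in AGF+ libraries and 39.4, 45.1 and 28.7 CPM in total DC libraries (1.33 ± 0.21, adjusted p = 4.23e-04). Mcm3, whose promoter is shown above, had 152, 195 and 229.8 CPM in AGF+ libraries and 90.2, 109 and 90.9 CPM in total DC libraries (1.01 ± 0.16, adjusted p = 5.46e-04). The helicase subunits thus rose together, Mcm5 included (1.26 ± 0.23, adjusted p = 9.90e-04), with Gmnn as the licensing gene that was not called. In the fork group 4 of 5 rose, and Uhrf1 had the largest rise of all 42. It had 243, 315 and 379 CPM in AGF+ libraries and 56.5, 90.5 and 63.3 CPM in total DC libraries (2.17 ± 0.20, adjusted p = 1.37e-05). Rrm2 had 68.5, 86.5 and 111 CPM in AGF+ libraries and 28.8, 43.6 and 25.5 CPM in total DC libraries (1.46 ± 0.23, adjusted p = 4.08e-04). The values of Tyms, thymidylate synthase, were 81.8, 90.7 and 133 CPM in AGF+ libraries and 51.8, 61.2 and 49.6 CPM in total DC libraries (0.93 ± 0.18, adjusted p = 0.00191). Rrm1 rose by about the same amount (0.99 ± 0.22, adjusted p = 0.00367).

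**Figure D3:**
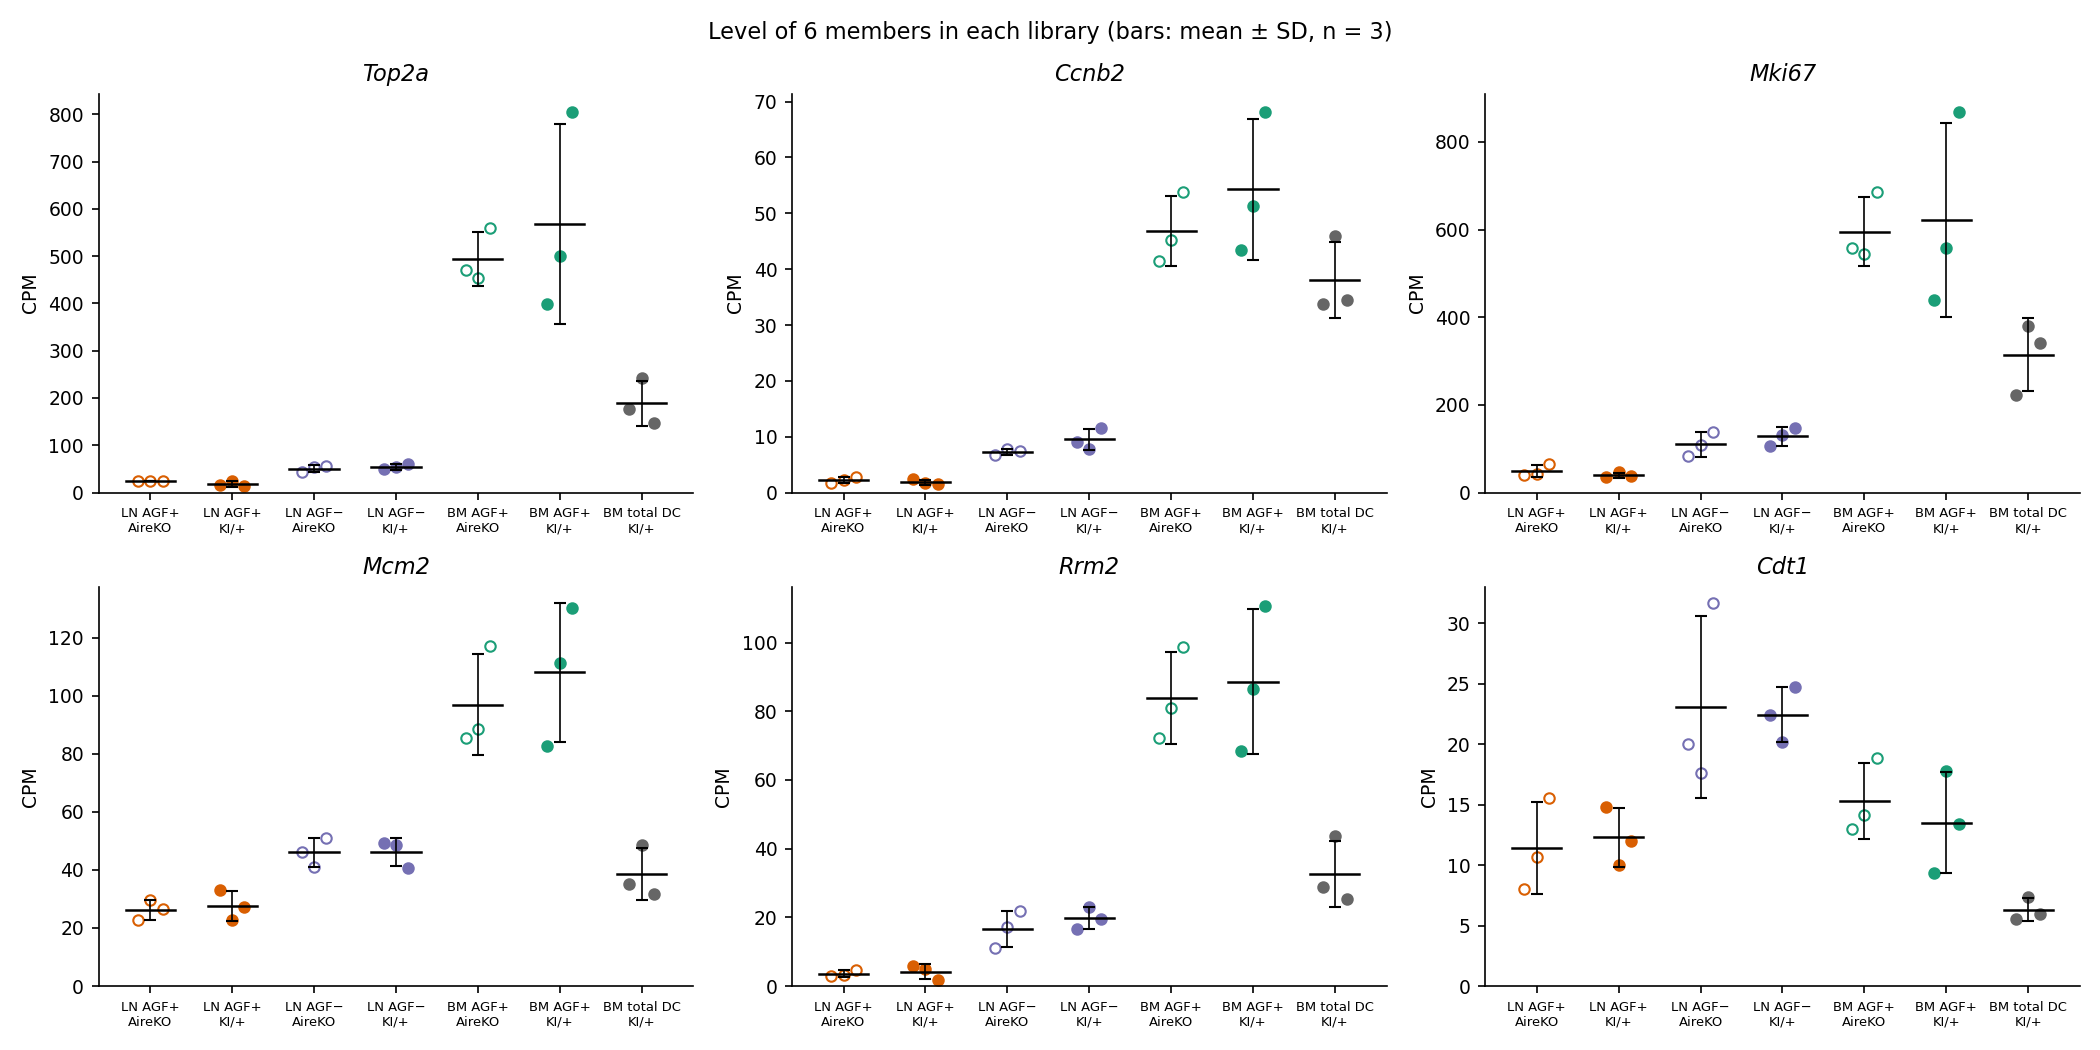
Level in CPM (y axis, linear, from 0) of Top2a, Ccnb2, Mki67, Mcm2, Rrm2 and Cdt1 in each library of the 7 groups; open points are AireKO and filled points KI/+ libraries, and bars are the mean and SD of 3. All but Cdt1 are highest in bone marrow AGF+ cells, while Cdt1 is highest there in lymph node AGF− cells and averages 22.4 CPM in their KI/+ libraries against 6.299 CPM in bone marrow total DCs.

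Of the other pathway lists in bone marrow, those of mitosis, replication and histone genes had most of their tested genes called higher. Of 49 other mitosis genes 44 rose and none fell, among them Ncapd2, a condensin subunit (1.57 ± 0.19, adjusted p = 6.65e-05), and Aspm, a spindle pole protein (1.52 ± 0.18, adjusted p = 6.81e-05). Of 38 other replication genes 24 rose and none fell, among them the polymerase genes Pold2 (1.44 ± 0.15, adjusted p = 3.04e-05) and Pole (1.88 ± 0.20, adjusted p = 3.34e-05). Of 11 histone and chromatin genes 8 rose. Cyclin D1, Ccnd1, which starts G1 progression, rose by a log2 fold change of 2.47 ± 0.25 (adjusted p = 2.33e-05) and its kinase Cdk4 by 1.15 ± 0.14 (adjusted p = 1.00e-04), 2 of the 3 called of 7 G1 genes. Of 9 genes of the list of E2F and MYB genes with Myc 4 rose, with Mybl2, which encodes B-Myb, at 1.63 ± 0.25 (adjusted p = 3.70e-04). The lists of CDK inhibitors, of pocket protein and DREAM genes and of p53 targets and antiproliferative genes held calls in both directions. Of all genes, 21.3% were called lower and 23% higher. Of these lists, only that of p53 targets and antiproliferative genes had a larger share of lower calls than all genes. Cdkn1a, the inhibitor p21, fell (-0.66 ± 0.11, adjusted p = 4.89e-04) while Cdkn2d rose, of 5 CDK inhibitors, and among 12 p53 targets and antiproliferative genes 5 fell, among them Tob1 (-1.85 ± 0.16, adjusted p = 8.91e-06) and Ccng1 (-1.09 ± 0.11, adjusted p = 2.13e-05), and 1 rose. Among 11 pocket protein and DREAM genes 4 rose, among them the MuvB subunit Lin9 (1.24 ± 0.25, adjusted p = 0.00223), and 2 fell, with the retinoblastoma gene Rb1 at -0.84 ± 0.13 (adjusted p = 3.37e-04).

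**Figure D4:**
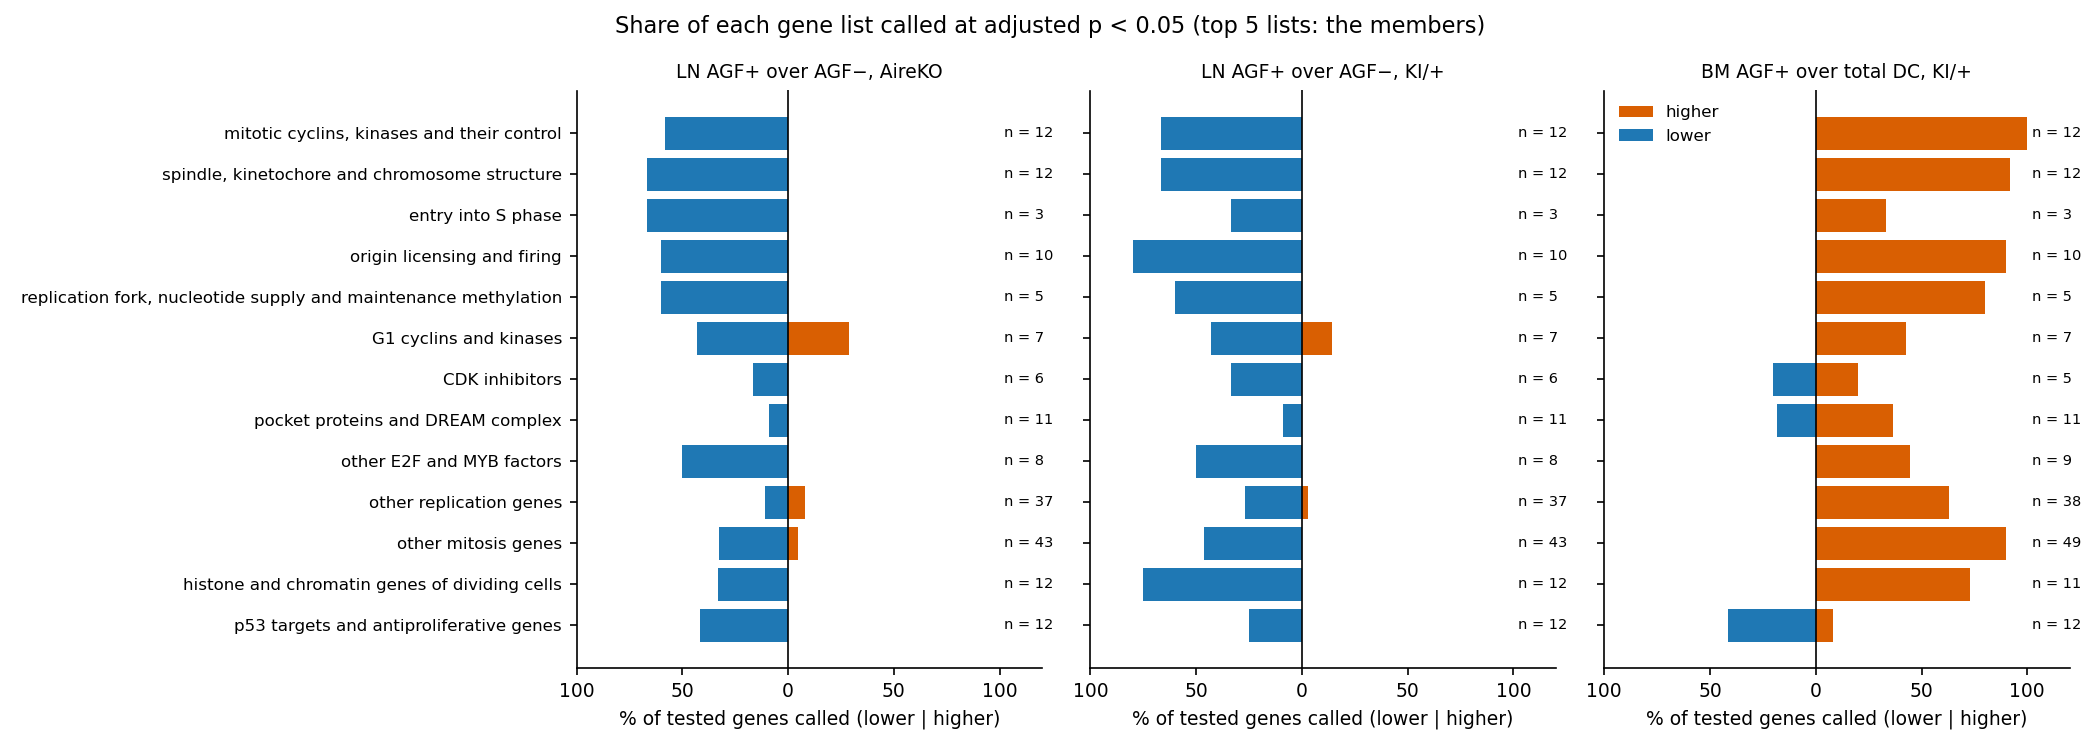
Percent of the tested genes of each list (n at the right of each bar) called higher (right of 0) or lower (left of 0) at an adjusted p of 0.05, for lymph node AGF+ over AGF− cells in AireKO and KI/+ mice and bone marrow AGF+ cells over total DCs; the top 5 lists are the 42 members by role. The bars show 20 of 43 other mitosis genes lower in KI/+ lymph node and 44 of 49 higher in bone marrow.

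Markers of other lineages also differed between the bone marrow populations. Of 9 plasmacytoid DC markers 8 rose, with sums of 1584 to 1716 CPM in AGF+ and 575 to 692 CPM in total DC libraries. Of 11 B cell markers 9 rose and 1 fell (725 to 824 CPM in AGF+ and 108 to 200 CPM in total DC libraries), of 9 T and NK cell markers 7 rose (345 to 423 CPM in AGF+ and 47.5 to 127 CPM in total DC libraries, with Trbc1, Trbc2 and Ncr1 at 0 in both), and of 9 progenitor markers 5 rose and 1 fell (932 to 953 CPM in AGF+ and 252 to 397 CPM in total DC libraries). Of 12 monocyte and macrophage markers 10 fell (166 to 259 CPM in AGF+ and 1191 to 1715 CPM in total DC libraries), and all 7 tested cDC2 markers fell. The part of these cells in the higher cell division transcripts was not tested.

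The difference between the tissues in the effect of the sort was tested directly in KI/+ cells. In bone marrow that effect is of gate as well as of reporter, and these cannot be told apart. Of the 42 genes 39 had a lower AGF+ effect in lymph node than in bone marrow and none a higher one, with a median log2 difference of -2.23, against 11.2% of all 17265 genes called lower and 9.75% called higher. Leaving out the libraries numbered 2 left 36, in a fit with fewer libraries in which calls over all genes fell as well. The genes not called were Ccne1, Ccne2 and Gmnn. Top2a (-3.16 ± 0.33, adjusted p = 1.05e-06), Cenpf (-3.94 ± 0.45, adjusted p = 3.27e-06), Rrm2 (-3.64 ± 0.42, adjusted p = 3.62e-06), Ccnb2 (-2.84 ± 0.33, adjusted p = 3.76e-06) and Mcm2 (-2.23 ± 0.27, adjusted p = 6.89e-06) had the smallest adjusted p of the 42. Ube2c had the largest difference (-4.59 ± 0.64, adjusted p = 2.76e-05) and Gmnn the smallest (-0.62 ± 0.37, adjusted p = 0.261). Of the 28 genes called lower in the lymph node comparison, 25 (89.3%) were called higher in the bone marrow comparison. That is 67.6% of the 37 called there, and these comparisons share no library. Without the libraries numbered 2, 12 of the 13 called in lymph node (92.3%) were among the 35 called in bone marrow (34.3% of those). As 37 and 35 of all 42 genes were called in bone marrow, overlaps of about these sizes follow from those shares alone.

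Between tissues, AGF+ cells of lymph node had far less cell division transcript than AGF+ cells of bone marrow. In KI/+ mice 41 of the 42 genes fell, all by at least 2-fold, with a median log2 fold change of -3.21, against 27% of all genes called lower and 27.2% called higher. In those 41 every lymph node library lay below every bone marrow library, against 30.2% of all genes (and 31.2% in the other direction). The median log2 fold change was -4.18 for the mitotic and -2.24 for the S-phase genes. Top2a averaged 18.2 ± 5.56 CPM in lymph node and 568 ± 211 CPM in bone marrow AGF+ KI/+ cells (-4.95 ± 0.26, adjusted p = 1.24e-11). Ccnb2 averaged 1.86 ± 0.448 CPM in lymph node and 54.3 ± 12.6 CPM in bone marrow (-4.84 ± 0.25, adjusted p = 1.08e-11), and Ube2c had the largest fall (-6.54 ± 0.47, adjusted p = 5.66e-10). Among the S-phase genes Rrm2 (-4.36 ± 0.32, adjusted p = 7.90e-10) fell further than the helicase subunits Mcm6 (-2.28 ± 0.18, adjusted p = 2.58e-09) and Mcm3 (-1.72 ± 0.15, adjusted p = 8.68e-09), which still stood at 58.4 CPM in lymph node and 192 CPM in bone marrow. Cdt1, the licensing factor, was the 1 gene not called, at 12.3 ± 2.41 CPM in lymph node and 13.5 ± 4.21 CPM in bone marrow (-0.14 ± 0.27, adjusted p = 0.685), and its sign turned without bone marrow AGF+ replicate 2, without the libraries numbered 2 and with library size alone. AireKO mice gave the same counts, 41 lower with Cdt1 not called (-0.42 ± 0.27, adjusted p = 0.206, but called without lymph node AGF+ AireKO replicate 3), a median of -3.42, and 25.7% of all genes called lower and as many higher. There too 41 genes had no overlap of libraries, against 31.5% of all genes lower and 33.1% higher. Each count was also 41 without the libraries numbered 2, in fits whose counts over all genes are not given here. The tissues differ in gate as well, which cannot be told apart from the tissue.

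**Figure D5:**
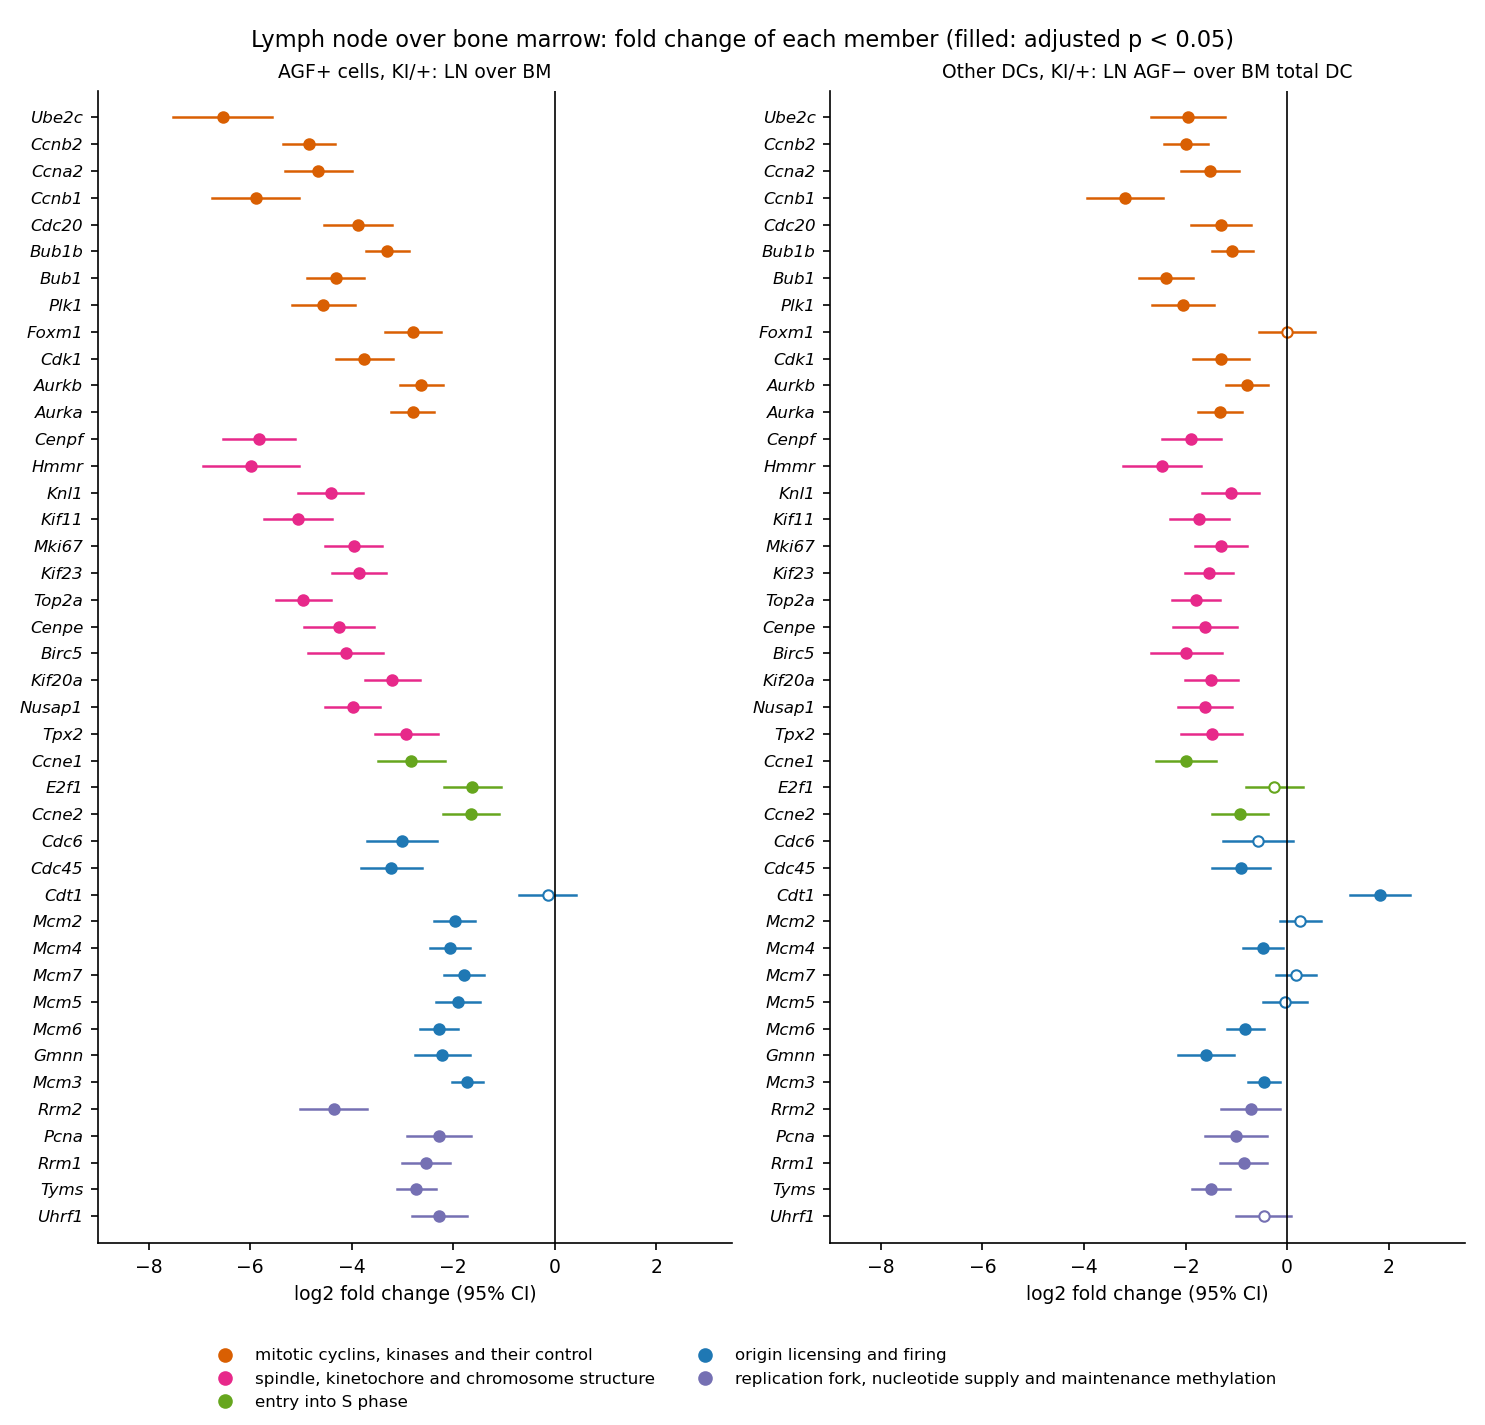
Log2 fold change (x axis, with 95% confidence intervals as lines) of each of the 42 members between lymph node and bone marrow in KI/+ mice, for AGF+ cells (left) and for lymph node AGF− cells over bone marrow total DCs (right); filled points passed an adjusted p of 0.05 and colours mark the role groups. All members but Cdt1, which was not called, are lower in lymph node AGF+ cells (41 of 42), and among the other DCs Cdt1 is the 1 member called higher in lymph node.

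The other DCs of KI/+ mice differed between tissues in the same direction by less. Of the 42 genes 34 were lower in lymph node AGF− cells than in bone marrow total DCs and 1 was higher, with a median log2 fold change of -1.30, against 27.3% of all genes called lower and 28.8% called higher, so that the lower calls lay above the background and the higher calls under it. In 34 genes every lymph node library lay lower, against 29.3% of all genes, and in Cdt1 every one lay higher, against 30.7% of all genes. Of the 24 mitotic genes 23 fell, all but Foxm1, with Ccnb1 the furthest (-3.19 ± 0.36, adjusted p = 2.92e-07) and Top2a at -1.79 ± 0.23 (adjusted p = 1.51e-06). Of the 18 S-phase genes 11 fell, among them Tyms (-1.504 ± 0.18, adjusted p = 7.27e-07) and Ccne1 (-2.00 ± 0.28, adjusted p = 5.83e-06). Gmnn and Cdt1, an inhibitor and its target, went opposite ways. Gmnn averaged 13.1 ± 1.43 CPM in lymph node AGF− cells and 39.8 ± 9.74 CPM in bone marrow total DCs (-1.60 ± 0.26, adjusted p = 2.96e-05), while Cdt1 averaged 22.4 ± 2.28 CPM in lymph node AGF− cells and 6.299 ± 0.957 CPM in bone marrow total DCs (1.83 ± 0.29, adjusted p = 1.89e-05). Leaving out the libraries numbered 2, 26 genes were lower and 1 was higher, 22 of the lower ones mitotic and 4 S-phase genes. That fit holds fewer libraries, and its counts over all genes are not given here.

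Aire genotype made no difference that passed the test to any of the 42 genes. In lymph node AGF+ cells, AireKO over KI/+, the log2 fold changes ran from -0.998 ± 0.55 for Birc5 (adjusted p = 0.967) to 1.04 ± 0.80 for Ube2c (adjusted p = 0.967), and 0.0063% of all genes were called in each direction. In lymph node AGF− cells they ran from -0.54 ± 0.32 for Cdc6 (adjusted p = 0.841) to 0.39 ± 0.26 for Pcna (adjusted p = 0.857), with 0.0063% of all genes called higher and 0% lower. In bone marrow AGF+ cells the range was narrower, from -0.24 ± 0.23 for Ccnb1 (adjusted p = 0.99996) to 0.17 ± 0.24 for Cdt1 (adjusted p = 0.99996), with 0.00645% of all genes called in each direction. Libraries did not overlap in 3 members higher and 2 lower in lymph node AGF+ cells (5.3% and 5.01% of all genes), in 0 higher and 4 lower in AGF− cells (4.5% and 4.46%), and in 0 in either direction in bone marrow AGF+ cells (3.2% and 3.49%). At an unadjusted p under 0.05 the counts of members were 1 in lymph node AGF+ cells, 0 in AGF− cells and 0 in bone marrow AGF+ cells. Over all genes they were 584 of 15884 in lymph node AGF+ cells, 948 of 15884 in AGF− cells and 264 of 15503 in bone marrow AGF+ cells. DESeq2 and limma voom called 0 members in each comparison as well. The 95% confidence interval of the log2 fold change of Ube2c in lymph node AGF+ cells reached from -0.67 to 2.75, so that a change of 2-fold in a gene of such low counts was not detectable at this depth. The difference of the sort effect between genotypes in lymph node called 0 of the 42, against 0.0063% of all genes lower and 0% higher. At an unadjusted p under 0.05 it held 2 members and 261 of all 15884 genes. The difference of the genotype effect between tissues in AGF+ cells also called 0 of the 42, against 0% of all genes in either direction. At an unadjusted p under 0.05 this one held 1 member and 457 of all 17265 genes. DESeq2 and limma voom called 0 members in both, and without the libraries numbered 2 each of these comparisons by genotype called 0 members too.

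Some counts may be shared with neighbours, since no source used here gives the strand setting of the counting. In the GENCODE vM21 annotation the exons of Kif20a share 29.3% of their bases with Cdc23 on the opposite strand, those of Ube2c 22.8% with Tnnc2, those of Ccne2 17.4% with Ints8 and those of Ccna2 12.5% with Exosc9. Ccnb2 has a pseudogene, Ccnb2-ps, with a mean of 4.36 CPM over all libraries of both tissues, which was not split by group. Means of Ccnb2 itself were 1.86 CPM in lymph node AGF+ KI/+ and 9.53 CPM in AGF− KI/+ cells. In bone marrow they were 54.3 CPM in AGF+ KI/+ cells, 46.9 CPM in AGF+ AireKO cells and 38.0 CPM in total DCs. The level of Ccnb2 is therefore uncertain.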

How the data were processed

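RNA of sorted mouse DCs was measured by RNA-seq in 21 libraries. Raw read counts per gene, as deposited by the authors, were used; per the submitters' processing notes the build was mm10 (GRCm38) and the tools included HTSeq 0.11.2, STAR 2.7.3a, fastp 0.20.0, edgeR 3.38.1, Picard 2.21.1 and SAMtools 1.9, with no role given. They name no gene annotation version, strandedness or handling of multi-mapped reads. The deposited normalized table was not used. In the count table, 327 of 55471 genes had no symbol and held 0.0139% of counts; they stayed in the library sizes.

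Counts were tested with edgeR 4.0.16 in R 4.3.3 (quasi-likelihood F test, TMM scaling, filterByExpr by group, Benjamini-Hochberg adjustment over all tested genes, threshold 0.05), in 1 fit for the 12 lymph node libraries, 1 for the 9 bone marrow libraries and 1 for all 21 in comparisons between tissues. The standard error of a log2 fold change is its size over the square root of F. Scripts were tested on simulated data. DESeq2 1.42.0 and limma 3.58.1 were alternatives. Promoter matches were made in Python 3.11.15 with pandas 2.3.3, and figures with matplotlib 3.10.9.

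The members and lists were chosen with earlier results of these data known. All members may be named; fold changes are given for up to 5 members per role group with the smallest adjusted p, the extremes and any called against the rest, values per library for up to 3 per role group, and up to 4 genes per other pathway list. A gene outside these is named only as called or not called. Same-numbered libraries deviated together (every correlation over 0.1) in 7 of 9 group pairs within a tissue and 1 of 12 across tissues.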

Additional observations from a re-analysis of the deposited data

Results flagged for a closer look

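The effect of the reporter sort differed between the tissues in a direct test (edgeR, KI/+ cells, lymph node AGF+ over AGF− minus bone marrow AGF+ over total DC), with 39 of the 42 genes lower in lymph node. Among the mitotic genes the log2 difference was -2.84 for Ccnb2, -2.22 for Bub1b, -4.59 for Ube2c, -3.16 for Top2a and -3.94 for Cenpf. Among the S-phase genes it was -1.37 for E2f1, -2.23 for Mcm2, -1.95 for Mcm7, -3.64 for Rrm2 and -1.68 for Rrm1. E2f1 was not called without the libraries numbered 2. The populations set against AGF+ cells came from different gates in the tissues, which cannot be told apart from the tissue.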

How the results depend on the processing

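Of 1659 alternative values for 101 named member results, 1620 kept direction and side of the threshold, 28 lost the call, 4 gained it and 7 reversed. The named members were picked mostly for the smallest adjusted p in their role group, so these numbers do not stand for all members. Without the libraries numbered 2, the lower members numbered 13 in KI/+ and 15 in AireKO lymph node. Leaving out single replicates gave 20 to 26 lower members in KI/+ lymph node, against 28 with all libraries. It gave 14 to 26 lower members in AireKO lymph node, and 0 to 1 lower members in bone marrow. That 1 gene, Ccne1, was also called with no filter on low counts and with limma voom. With library size alone 2 members were higher in lymph node AGF− cells than in bone marrow total DCs. That scaling moved the median over all genes there to a log2 of 0.29, against 0.05 with TMM, and by 0.1 or more also in bone marrow (0.13 against 0.02) and in AGF+ KI/+ cells between tissues (0.20 against 0.04). The log2 fold change of Cdt1 between tissues in AGF+ KI/+ cells reversed to 0.0189 with library size alone and to 0.2337 without the libraries numbered 2, and ran from -0.3550 to 0.0845 with single replicates left out. Over such omissions Uhrf1 in KI/+ lymph node ran from -0.0003 to 0.6188, Pcna by genotype in AGF− cells from -0.0379 to 0.5836, and, by genotype in bone marrow, Ccnb1 from -0.4206 to 0.1208 and Cdt1 from -0.0267 to 0.4160. For the reversals the cause was not tested.

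With the replicate block the counts of called members were 30 lower in KI/+ lymph node, 26 in AireKO lymph node and 38 higher in bone marrow. They were 41 lower in AGF+ cells between tissues in each genotype and 39 lower in the test between tissues of the sort effect. Counts over all genes with the block are not given here. Counts over all genes fell without the libraries numbered 2, to 877 higher and 1065 lower in KI/+ lymph node (against 1603 and 1746), 2166 and 1692 in bone marrow (against 3558 and 3308) and 649 and 1138 in the test between tissues (against 1684 and 1936). Without AGF− KI/+ replicate 3 the higher count in KI/+ lymph node was 1044, and without AGF− AireKO replicate 2 the lower count by genotype in AGF− cells was 82. With no filter the counts by genotype were 13 higher and 84 lower in lymph node AGF+ cells, 68 and 202 in AGF− cells and 13 and 13 in bone marrow. Low counts limit Ube2c, Ccnb1, Hmmr and Birc5 in lymph node AGF+ cells, where Birc5 had 0.334, 1.00 and 1.84 CPM in the AireKO libraries.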
